A study of Mus musculus with 2 samples.

Results

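The 10 genes described here are the inhibitors of cyclin-dependent kinases Cdkn1a, Cdkn1b, Cdkn2a, Cdkn2b, Cdkn2c and Cdkn2d, the p53 gene Trp53 and its ubiquitin ligase Mdm2, the retinoblastoma gene Rb1, and the secreted stress factor Gdf15. They were chosen by gene name out of 55536 annotated genes, and all 10 were found in both kinds of table. The RNA was total RNA of heart tissue of female B6CASTF1/J mice, hybrids of the C57BL/6J and CAST/EiJ strains, aged 18 to 20 months. Each of the 2 libraries, biological replicates 1 and 2 of the only group, was made from 300 ng of RNA with ERCC spike-ins, synthetic RNAs of known amount. The labels name no treatment and no younger animals, so levels at this age can be described and a change with age cannot. Both replicates carry the same donor entry, so separate animals cannot be taken for granted and their spread need not be that between animals.

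Cells leave the division cycle when cyclin-dependent kinases are blocked. Proteins of the CIP/KIP family bind complexes of a cyclin with its kinase, whereas INK4 proteins bind the kinases Cdk4 and Cdk6 and keep cyclin D away from them. With these kinases silent, the retinoblastoma protein stays bound to E2F factors and holds the genes of DNA replication off. The transcription factor p53 switches on Cdkn1a after DNA damage, and also Mdm2, whose protein marks p53 for degradation. Senescent cells, which have stopped dividing for good, are commonly recognised by the products of Cdkn2a and Cdkn1a and by a set of secreted proteins. Most cardiomyocytes of an adult mouse no longer divide.

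Expected counts, the estimated reads per gene, totalled 35897521 in replicate 1 and 36926429 in replicate 2. An observed 0 is compatible with as many as 3 counts, which is 0.0836 CPM in replicate 1 and 0.0812 CPM in replicate 2. Values come from the tables with the column layout of RSEM unless the kallisto-layout table, another quantification of the same libraries, is named. Levels are given in TPM, the number of transcripts per fixed total in each library, which is per length and can be compared between genes. All 9 ventricular cardiomyocyte markers were detected in both libraries, among them Myl2 with 8917 and 8569 TPM. Markers of other cells differed between the libraries: of 16 cell type lists, 6 had a median 1.5-fold or more higher in replicate 2 and 2 a median 1.5-fold or more higher in replicate 1. With a pseudocount of 1, mesothelium and neutrophil markers no longer passed, at 0.49 and -0.18 on the log2 scale. In bulk tissue, fewer cells of a type and less RNA per cell cannot be told apart.

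The members spanned 2 ranges of level with a wide step between them. Cdkn1a, Mdm2, Cdkn1b, Rb1, Cdkn2d, Trp53 and Cdkn2c, 7 of the 10 members, reached 1 TPM in each library, as did 49.9% of the 22015 nuclear protein-coding genes. Gdf15, Cdkn2b and Cdkn2a lay below 1 TPM in both. The mean of Cdkn2c, the lowest of the 7, was 8.97-fold that of Gdf15, the highest of the 3. The median of the members' mean levels was 5.67 TPM, and that of all nuclear protein-coding genes at 1 TPM or more in both libraries was 8.98 TPM.

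Ordered by mean TPM, 6 of the 9 neighbouring pairs were apart, that is, each value of the upper gene exceeded both of the lower gene. The order ran from Cdkn1a through Mdm2, Cdkn1b and Rb1, each apart from the next, to Cdkn2d, Trp53 and Cdkn2c, whose values overlapped. Gdf15 and Cdkn2b also overlapped. Cdkn2b was above Cdkn2a in both libraries, but their credibility intervals, the deposited range of each TPM estimate, overlapped.

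**Figure D1:**
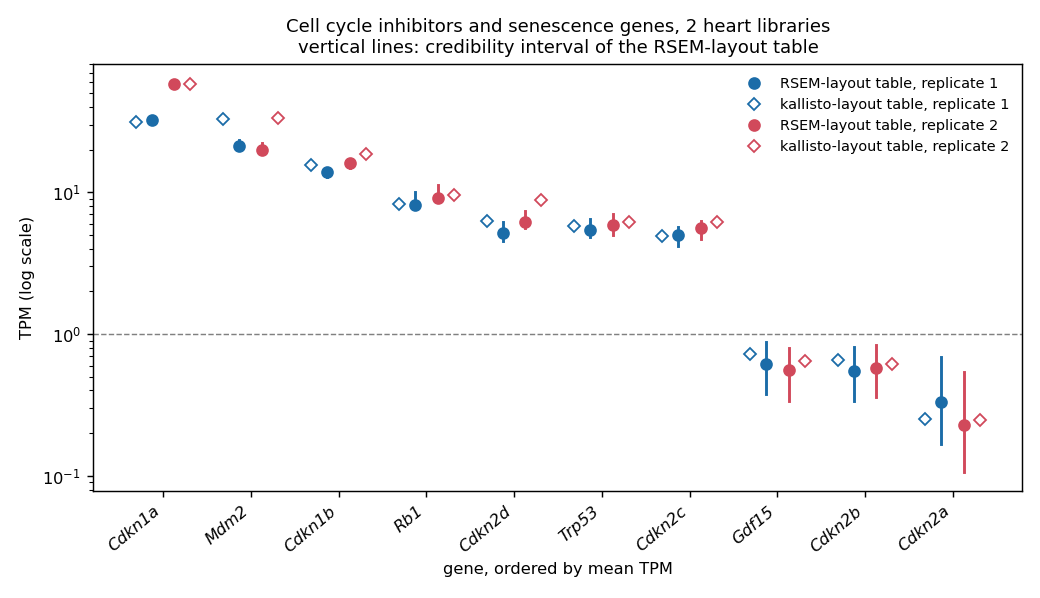
TPM on a log scale for each member (filled circles, RSEM-layout table, with its credibility interval as a vertical line; open diamonds, kallisto-layout table) in replicate 1 (blue) and replicate 2 (red). The dashed line marks 1 TPM: 7 members lie above it and Gdf15, Cdkn2b and Cdkn2a below, and the libraries are most clearly separated at Cdkn1a.

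Cdkn1a, which encodes the CIP/KIP inhibitor p21, was the most abundant member and the one whose level differed most clearly between the libraries. It lies on the plus strand at chr17:29090976-29100727 and had a TPM of 32.4 in replicate 1 and of 57.9 in replicate 2, from 1628 and 3054 expected counts. Replicate 2 was the higher library, and the credibility intervals, 30.3 to 33.5 TPM and 54.7 to 58.9 TPM, did not overlap. The mean of 45.2 ± 18.0 TPM (SD, n = 2) was above that of 94.2% of nuclear protein-coding genes.

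The TPM of Cdkn1a was 1.79-fold higher in replicate 2, a log2 ratio of 0.83. Per total count the ratio was 1.82, with a 95% interval of 1.72 to 1.94 that covers counting error only. It was the only 1 of the 7 members with a mean of 1 TPM or more that was 1.5-fold or more higher in replicate 2, a difference shared by 6.52% of the 11341 nuclear protein-coding genes with such a mean; 9.23% were that far apart in either direction. Among the 4506 of these with a mean of 10 to 100 TPM, the band that holds Cdkn1a, the share was 2.75%. None of the 7 was 1.5-fold or more higher in replicate 1, against 2.72% of all genes, and none was 2-fold apart in either direction, against 3.37%. The ratio has 1 library on each side and thus no replicate check.

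**Figure D2:**
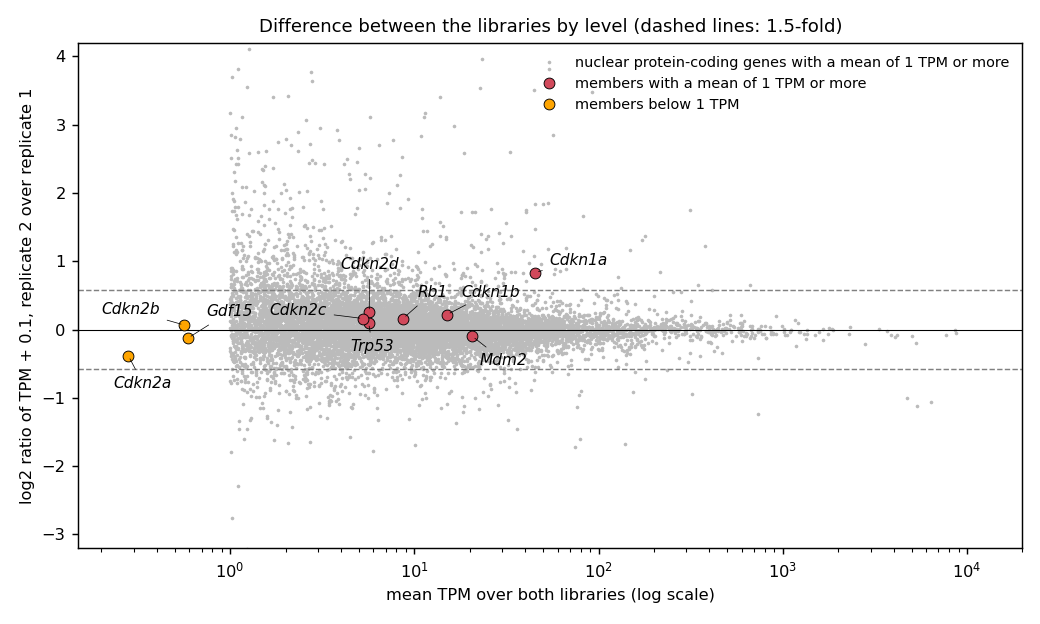
Log2 ratio of TPM + 0.1, replicate 2 over replicate 1, against mean TPM (log scale) for nuclear protein-coding genes with a mean of 1 TPM or more (grey; 17 genes lie outside the plotted range) and for the members (coloured). Cdkn1a, at 0.83, is the only member outside the dashed lines at 1.5-fold, and Mdm2, Gdf15 and Cdkn2a are the members below 0, of which Mdm2 is at 0.01 in the kallisto-layout table.

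Annotated coding transcripts of Cdkn1a begin at an upstream start, at a main start closer to the coding exons or, for Cdkn1a-203, within the first intron of the others. The promoter windows of the upstream and main starts, those with an entry in the RefSeq table (GRCm38.p6, plus strand), are shown because the tables assign reads to one of them and hardly any to the other. The window of the upstream start is chr17:29090729-29091008 and that of the main start chr17:29093519-29093798. Capitals mark matches on either strand to CATG followed after any 6 bases by CATG, the spacing of the cores in a p53 binding element, to TATAA, the TATA box, or to GGGCGG, a GC box.
Cdkn1a upstream start: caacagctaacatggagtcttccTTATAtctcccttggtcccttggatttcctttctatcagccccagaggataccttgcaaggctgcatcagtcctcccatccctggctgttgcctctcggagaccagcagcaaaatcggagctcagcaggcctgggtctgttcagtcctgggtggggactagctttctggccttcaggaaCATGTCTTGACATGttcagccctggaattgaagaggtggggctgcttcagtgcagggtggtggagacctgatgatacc
Cdkn1a main start: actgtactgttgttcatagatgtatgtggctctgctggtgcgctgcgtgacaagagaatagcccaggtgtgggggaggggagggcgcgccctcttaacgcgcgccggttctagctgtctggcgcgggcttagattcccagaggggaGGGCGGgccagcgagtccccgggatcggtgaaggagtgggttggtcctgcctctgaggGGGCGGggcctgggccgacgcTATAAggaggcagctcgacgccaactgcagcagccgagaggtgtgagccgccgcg
The upstream window holds the CATG pair once, beginning 48 bases before the start, and 0.691% of 32851 mouse promoter windows of 280 bases hold it at least once. It also holds TATAA on the opposite strand. The motifs do not overlap. The main window holds TATAA 25 bases before the start and GGGCGG in 2 places, motifs present in 24.04% and 34.7% of the windows. A match is a run of letters and not a measured site.

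Nearly all Cdkn1a reads were placed on transcripts from the main start. In the RSEM-layout table Cdkn1a-201 had 30.8 and 55.2 TPM, 94.9% and 95.3% of the gene. Cdkn1a-202, which begins at the upstream start, had 0.28 and 0.58 TPM from 6.48 and 14.1 counts, and the kallisto-layout table has it at 0 throughout. Cdkn1a-203 had 0.52 and 1.12 TPM, and 1.11 and 2.15 TPM in the kallisto-layout table. Cdkn1a-204, a single exon at the upstream start, was at 0 in both tables. The kallisto-layout table gave the gene the same level, 31.5 and 58.3 TPM, but placed 28.0 and 56.2 TPM of it on Cdkn1a-205 instead of Cdkn1a-201. Both models have 3 exons and start at the main promoter, and 97.6% of the 31-base words of Cdkn1a-201 also occur in Cdkn1a-205, so reads separate them poorly.

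Cdkn1b, which encodes the CIP/KIP inhibitor p27Kip1, had a TPM of 13.9 in replicate 1 and of 16.2 in replicate 2 (chr6:134920401-134925513, plus strand). Replicate 2 was again the higher library, and the credibility intervals, 12.9 to 14.8 and 14.9 to 16.8 TPM, lay just apart. The ratio was 1.16-fold in TPM and 1.23-fold per total count, with a 95% interval of 1.13 to 1.33. Thus 2 of the 7 members, Cdkn1a and Cdkn1b, had intervals apart, both higher in replicate 2; intervals were apart for 18.7% of all genes and higher in replicate 2 for 9.66%.

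The transcripts of Cdkn1b differ mainly after the coding sequence. Cdkn1b-201 held 84.0% and 79.4% of the gene, and Cdkn1b-202, which runs on through the second intron into an exon of 3558 bases, held 15.5% and 19.4%. The kallisto-layout table gave the latter 16.02% and 20.7%, so both tables put about the same share on the long form. Cdkn1c, the remaining CIP/KIP gene and not a member, had 10.3 and 11.8 TPM, and 16.1 and 18.98 TPM in the kallisto-layout table.

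Cdkn1a and Cdkn1b made up most of the inhibitor mRNA among the members. Their summed TPM was 46.3 in replicate 1 and 74.1 in replicate 2, against 11.1 and 12.6 TPM for the 4 INK4 genes together. Of the 6 inhibitors combined, Cdkn1a alone accounted for 56.5% and 66.8%, and the INK4 genes for 19.3% and 14.5%. Cdkn1a exceeded Cdkn2a 98.3-fold in replicate 1 and 252-fold in replicate 2, where the latter rests on a few reads.

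Cdkn2a and its neighbour Cdkn2b, the INK4 genes most used to mark senescence, were the lowest inhibitors. Cdkn2a (chr4:89274471-89294653, minus strand) was measured at 0.33 and 0.23 TPM from 7 and 5 counts, with credibility intervals of 0.168 to 0.689 and 0.107 to 0.537 TPM. Cdkn2b (chr4:89306299-89311039, minus strand), which encodes p15Ink4b, was measured at 0.55 and 0.58 TPM from 20 and 22 counts. For both genes the libraries overlapped, and counts this low leave wide ratios. The count ratio of Cdkn2a was 0.694, with a 95% interval of 0.174 to 2.54. That of Cdkn2b was 1.07, with an interval of 0.557 to 2.07.

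The Cdkn2a locus encodes unrelated proteins in overlapping frames, p16Ink4a, which blocks Cdk4 and Cdk6, and p19Arf, which binds Mdm2 and so protects p53. Each has its own first exon and both share exon 2. The junctions below, taken from the GENCODE M21 transcripts, are shown because only reads that touch a first exon can tell the proteins apart. Each line has the last 45 bases of the first exon in lower case and the first 45 bases of exon 2 in capitals, 5′ to 3′.
Cdkn2a-201 (p16Ink4a), first exon chr4:89281986-89282192: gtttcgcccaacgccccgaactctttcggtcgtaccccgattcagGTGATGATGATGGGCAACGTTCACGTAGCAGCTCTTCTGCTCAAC
Cdkn2a-202 (p19Arf), first exon chr4:89294334-89294653: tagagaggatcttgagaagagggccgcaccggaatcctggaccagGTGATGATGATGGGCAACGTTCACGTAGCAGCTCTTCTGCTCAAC
The capitals are the same in both lines. Exon 2 (chr4:89276645-89276985) is entered at the start of a codon in Cdkn2a-201, after 126 coding bases, and 1 base into a codon in Cdkn2a-202, after 190 coding bases. The coding sequences, 504 and 507 bases long, therefore read the shared exon in different frames.

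Every Cdkn2a read was placed on the p16Ink4a form in both tables and both libraries. Cdkn2a-202, the p19Arf form, had 0 counts, with upper credibility bounds of 0.206 and 0.251 TPM; up to 3 counts per library could have been missed. Of the 822 words of 31 bases in Cdkn2a-201, 66.7% also occur in Cdkn2a-202, and 274 are its own. With 7 and 5 counts over a gene whose forms share most of their sequence, the presence of p19Arf mRNA below this limit was not detectable at this depth. The promoter window at the p19Arf start (RefSeq) is rich in CpG, with 43 CpG and 77.1% GC, whereas that at the p16Ink4a start has 10 CpG and 60.7% GC; the medians over all windows were 6 CpG and 52.5% GC.

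**Figure D3:**
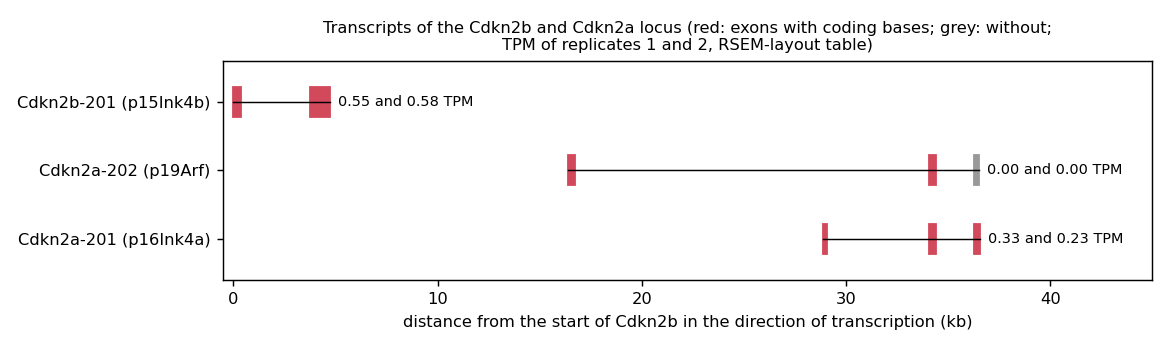
Exons of Cdkn2b and of both Cdkn2a transcripts, to scale in kb from the start of Cdkn2b in the direction of transcription, with the TPM of replicates 1 and 2 (RSEM-layout table) beside each. Both Cdkn2a transcripts share exon 2 and differ in the first exon, and the p19Arf form is at 0.

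The other INK4 genes were several times more abundant. Cdkn2c, which encodes p18Ink4c (chr4:109660876-109667189, minus strand), was measured at 4.99 and 5.59 TPM from 202 and 236 counts. Cdkn2d, which encodes p19Ink4d (chr9:21288410-21291407, minus strand), was measured at 5.19 and 6.19 TPM from 190 and 241 counts. Both were slightly higher in replicate 2, with overlapping credibility intervals, and neither was above the other beyond the spread of the libraries. The kallisto-layout table gave Cdkn2c 4.95 and 6.18 TPM and Cdkn2d 6.23 and 8.78 TPM. There each value of Cdkn2d exceeded both of Cdkn2c, so their order depends on the table. Per total count Cdkn2d was 1.23-fold higher in replicate 2 (95% interval 1.02 to 1.499) and Cdkn2c 1.14-fold (0.937 to 1.38).

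The transcript shares of both genes differed between the tables. Cdkn2c-201 held 67.5% and 68.7% of its gene in the RSEM-layout table and 55.99% and 63.5% in the kallisto-layout table, and Cdkn2c-202, which begins further upstream and has the same coding length of 504 bases, held the rest. Cdkn2d-203 held 91.9% and 100% in the RSEM-layout table, but 93.5% and 77.4% in the kallisto-layout table, where Cdkn2d-202 took up the remainder.

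Trp53 and Mdm2, regulator and target of each other, were both expressed and differed little between the libraries. Trp53 (chr11:69580359-69591873, plus strand) was measured at 5.44 and 5.85 TPM from 259 and 273 counts. Mdm2 (chr10:117688875-117710758, minus strand) was measured at 21.2 and 19.9 TPM from 1471 and 1442 counts. The libraries overlapped in their credibility intervals for each gene, and the count ratio was 1.02 for Trp53 (95% interval 0.861 to 1.22). For Mdm2 it was 0.953 (0.886 to 1.03). By TPM Mdm2 was the only 1 of the 7 that was lower in replicate 2, with a log2 ratio of -0.10, but it was at 0.01 in the kallisto-layout table. The log2 ratio of Trp53 was 0.10 by TPM and -0.05 with counts scaled by TMM, so neither gene had a direction that held across scalings and tables. The ratio of Mdm2 to Trp53 was 3.90 in replicate 1 and 3.40 in replicate 2.

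Mdm2 was also the only 1 of the 7 whose level depended on the table by 1.5-fold or more. The kallisto-layout table gave it 33.0 and 33.2 TPM, 1.55-fold and 1.67-fold the RSEM-layout values; 6.65% of nuclear protein-coding genes were that much higher in both libraries and 1.01% that much lower, 7.66% together. All genes were shifted between the tables by a median log2 ratio of 0.14 and 0.20, and relative to this shift Mdm2 was higher by 0.50 and 0.54, which is under 1.5-fold. In the kallisto-layout table Mdm2 was as abundant as Cdkn1a in replicate 1, where the ratio of Cdkn1a to Mdm2 was 0.954 instead of 1.53, so the place of Cdkn1a above Mdm2 in that library rests on the table.

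The difference lay in noncoding models of Mdm2. Its 2 coding transcripts summed to 16.7 and 15.4 TPM in the RSEM-layout table and to 14.8 and 14.6 TPM in the kallisto-layout table. Mdm2-204, a retained-intron model near the 3′ end, had 0.87 and 1.49 TPM in the former and 10.8 and 10.2 TPM in the latter. Of its 31-base words 66.7% also occur in Mdm2-201, the main coding transcript. Coding transcripts therefore made up 78.5% and 77.6% of Mdm2 in one table and 44.9% and 43.8% in the other.

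The transcripts of Trp53 could not be resolved. Trp53-203 held 73.0% and 39.1% of the gene in the RSEM-layout table while Trp53-201 held 0.27% and 36.7%, although every 31-base word of Trp53-203 also occurs in Trp53-201. In the kallisto-layout table the shares were closer between the libraries, 53.8% and 58.3% for Trp53-203. The pseudogene Trp53-ps shares at least 365 of the 4154 words of Trp53 and took 1 and 10.1 counts in the RSEM-layout table and none in the kallisto-layout table.

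**Figure D4:**
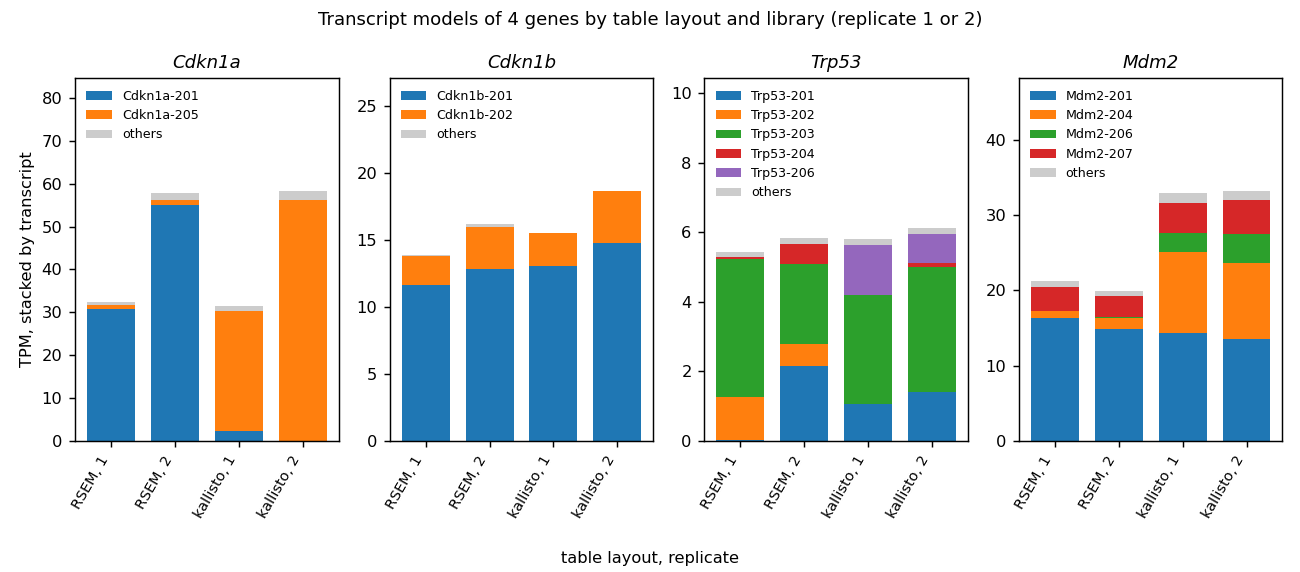
TPM stacked by transcript model for Cdkn1a, Cdkn1b, Trp53 and Mdm2 in each table layout and library. The 2 tables place Cdkn1a on different models at the same total, share Cdkn1b alike, and differ for Mdm2 by the noncoding models Mdm2-204 and Mdm2-206.

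Rb1, whose protein is held active by the inhibitors above, had a TPM of 8.19 in replicate 1 and of 9.17 in replicate 2 (chr14:73183673-73325822, minus strand), from 886 and 967 counts. The libraries overlapped, with a count ratio of 1.06 (95% interval 0.968 to 1.16). The only coding transcript, Rb1-201, held 83.0% and 76.0%, and the remainder lay on short noncoding models. Of the 31-base words of Rb1, 13.2% also occur in other genes. Of these 783 words, at least 353 occur in Lpar6, a gene on the opposite strand within Rb1 that had 0.84 and 0.81 TPM. Rcbtb2, which also overlaps Rb1 on the opposite strand (chr14:73123037-73207843), had 7.62 and 9.22 TPM, close to the level of Rb1. Since the strand setting of the counting is not given, reads of such opposite genes may not be separable there.

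Gdf15, which encodes a circulating factor released by stressed cells (chr8:70629393-70632456, minus strand), was near the floor of the members. It was measured at 0.62 and 0.56 TPM from 22 and 21 counts, with a count ratio of 0.928 (95% interval 0.485 to 1.77), so any difference was within counting error. All reads were placed on Gdf15-202 in both tables, but this placement is not settled. In the RSEM-layout table the lower credibility bounds of Gdf15-202 were only 0.0019 TPM in replicate 1 and 0.0068 TPM in replicate 2. Gdf15-201, at 0 counts, had upper bounds of 0.534 and 0.516 TPM. Of the words of Gdf15-202, 77.4% also occur in Gdf15-201, so reads separate these models poorly. The Gdf15 receptor gene Gfral was at 0 TPM in both libraries, as was Fgf21, another circulating stress factor. The list of the Gdf15 receptor and stress response had 6 of 10 genes at or above 1 TPM in both, led by the transcription factor gene Atf4 with 36.6 and 34.98 TPM and by Ddit3 with 12.4 and 8.56 TPM. Chac1 differed most, with 0.95 and 2.72 TPM.

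Leaving out Cdkn1a, the members' folds of replicate 2 over replicate 1 ran from 0.697 for Cdkn2a to 1.19 for Cdkn2d. The median log2 ratio of the 7 members with a mean of 1 TPM or more was 0.16, beside 0.02 for all such genes, whose SD was 0.49. Of the 9 members with several transcripts, all but Cdkn2a and Gdf15 had a mean of 1 TPM or more. Each of these 7 had the same leading transcript in both libraries, as did 88% of 10400 genes with such a mean and several transcripts. All of the 7 but Cdkn1a had it also in both tables, as did 68.4% of those genes. Cdkn2a and Gdf15, which rest on few counts, also kept theirs in both libraries and both tables.

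The p53 targets other than the members were divided in direction, and the split depended on the table. Of 24 such genes, 20 reached 1 TPM in each library, 12 were higher in replicate 2, and the median log2 ratio was 0.002. By the kallisto-layout table replicate 2 was the higher library for 17 of the 24, with a median of 0.17. Sesn1, which encodes a stress-induced inhibitor of the growth kinase mTORC1, had 28.7 and 60.6 TPM, and Trp53inp1, which differed most, 3.43 and 8.41 TPM. Of the 21 with a mean of 1 TPM or more, these were 2 of 4 that were 1.5-fold or more higher in replicate 2, with Fas and Gadd45a, while Plk2 and Tigar were that much lower. Ccng1, the most abundant, had 205 and 192 TPM, and Cdkn1a was the third most abundant of the 27 p53 targets, members included, in each library. In the kallisto-layout table Mdm2 was also above Cdkn1a in replicate 1, with 33.0 against 31.5 TPM. Of the 15 p53 regulators, 11 had a mean of 1 TPM or more and none of these was 1.5-fold apart. They were led by the ubiquitin ligase gene Cop1 with 54.8 and 52.8 TPM and by the kinase gene Hipk2 with 34.3 and 38.3 TPM; Ppm1d, a phosphatase gene, differed most with 2.49 and 3.39 TPM.

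The kinases and cyclins on which the inhibitors act were led by D-type cyclins, the partners of Cdk4 and Cdk6. Of 15 cyclin and kinase genes, 9 reached 1 TPM in each library, with Ccnd2 highest at 52.03 and 63.9 TPM and Ccnd3 next at 33.9 TPM in each; Ccne2 differed most, at 1.2 and 1.87 TPM. Of 20 proliferation markers 8 reached 1 TPM in both libraries, led by the replication genes Pcna with 15.01 and 15.8 TPM and Mcm7 with 3.38 and 4.51 TPM. Replicate 2 was higher for 18 of the 20, with a median log2 ratio of 0.58, which fell to 0.21 with a pseudocount of 1, and Mcm3 differed most of those with a mean of 1 TPM or more, at 1.30 and 2.15 TPM. The list of E2F factors, relatives of Rb1 and associated proteins had 10 of 17 genes at 1 TPM or more in both libraries. None of the 11 with a mean of 1 TPM or more was 1.5-fold apart. E2f6 had 37.4 and 33.7 TPM, Tfdp2 35.95 and 34.7 TPM, and E2f5, which differed most, 1.47 and 0.99 TPM.

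Genes that act on the inhibitors themselves were mostly expressed at similar levels in both libraries. Of 16 Polycomb, T-box and related regulators of the Cdkn2a locus, 15 reached 1 TPM in each library and the median log2 ratio was 0.02. Not all of the 16 are repressors, since the list includes Kdm6b with 8.74 and 7 TPM. Highest were Bmi1 with 29.6 and 24.5 TPM and Phc2 with 15.6 and 15.4 TPM. Phc1 differed most with 4.41 and 7.25 TPM. Of the 9 ubiquitin ligase parts that degrade the inhibitors, 6 reached 1 TPM in each library, led by Skp1a with 109 and 104 TPM and Ddb1 with 55.0 and 62.1 TPM. Skp2, which recognises p27Kip1, had 0.13 and 0.23 TPM, and its partner Cks1b differed most of the list, with 0.86 and 1.88 TPM.

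Levels of secreted senescence genes ranged widely. Of 24 genes of senescence-associated secretion, 11 reached 1 TPM in each library, 11 were higher in replicate 2, and the median log2 ratio was 0. Vegfa had 120 and 90.5 TPM and Igfbp7 53.1 and 64.8 TPM, whereas Il1a and Cxcl2 were at 0 TPM in both libraries. Ccl2, a chemokine gene, differed most, with 1.86 and 0.19 TPM. All 5 nuclear and lysosomal genes listed for their link to senescence were at 1 TPM or more, which by itself is no mark of senescence. Hmgb1 was the highest with 35.5 and 39.9 TPM, but had 114 and 115 TPM in the kallisto-layout table. Glb1, which encodes the beta-galactosidase used as a senescence stain, had 3.96 and 5.88 TPM.

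Of the 16 pathway lists, 2 had a median 1.5-fold or more apart between the libraries, those of FoxO and fasting genes and of glucocorticoid response, both higher in replicate 2 like Cdkn1a. Cdkn1a is a known target of FoxO factors and of the glucocorticoid receptor as well as of p53. All 12 FoxO and fasting genes were higher in replicate 2, 7 of them by 1.5-fold or more, with a median log2 ratio of 0.80 and a sum of 348 and 783 TPM. Pdk4, which shifts the heart from glucose to fat, had 143 and 482 TPM, Trim63 63.3 and 76.0 TPM, and Angptl4, which differed most, 0.77 and 4.76 TPM. Of the 9 glucocorticoid response genes 8 were higher in replicate 2, with a median of 0.78 and a sum of 279 and 504 TPM; Mt1 had 105 and 160 TPM, Tsc22d3 40.7 and 92.9 TPM, and Zbtb16 23.0 and 83.0 TPM. Circadian clock genes had a median of 0.34, and those of the unfolded protein response, 11 of 12 lower in replicate 2, a median of -0.55. The part of these in the difference of Cdkn1a was not tested.

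**Figure D5:**
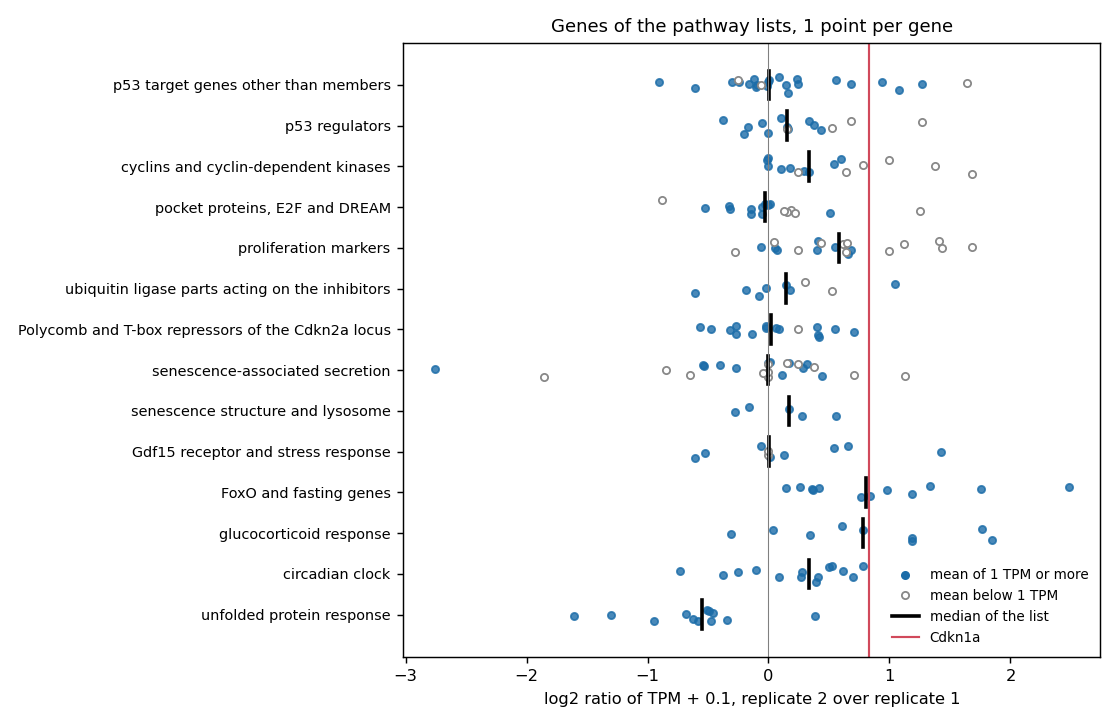
Log2 ratio of TPM + 0.1, replicate 2 over replicate 1, for each gene of 14 pathway lists (filled, mean of 1 TPM or more; open, below), with the median of each list as a black bar and Cdkn1a as a red line at 0.83. The medians of the FoxO and fasting genes and of the glucocorticoid response lie next to the line, that of the p53 targets near 0 (0.17 in the kallisto-layout table). Single genes of each of these lists lie on both sides of the line. The part of any list in the difference of Cdkn1a was not tested.

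Markers of several other cell types also differed between the libraries. With 1 library on each side, these differences cannot be tied to that of Cdkn1a. Replicate 2 was higher for all 11 adipocyte markers, which summed to 313 and 795 TPM, for 9 of 10 markers of airway and lung epithelium with 1.07 and 286 TPM, for all 9 T cell markers with 2.75 and 16.9 TPM, and for all 8 B and plasma cell markers with 11.7 and 144 TPM. It was higher for 6 of 8 atrial cardiomyocyte markers, with 477 and 1123 TPM, and for all 6 mesothelium markers, with 18.1 and 28.5 TPM. All 7 erythroid markers were lower in replicate 2, with 23412 and 11151 TPM. Of the airway list, Bpifa1 was at 0 in replicate 1 and at 157 TPM in replicate 2, and Sftpc was at 0 in both. The 9 ventricular markers summed to 35299 and 33946 TPM, and 0 of them were higher in replicate 2, against 6 in the kallisto-layout table. Irx4, which differed most of these, had 15.5 and 7.72 TPM. Median log2 ratios were -0.09 for endothelial, -0.14 for mural, -0.09 for skeletal muscle and -0.89 for neutrophil markers. They were 0.27 for fibroblast and 0.24 for macrophage markers. The part of these cells in the level of Cdkn1a was not tested.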

How the data were processed

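Total RNA of the heart was sequenced in 2 libraries of 1 group. The expected counts, estimated reads per gene or transcript, and TPM values come from tables deposited by the authors with the column layout of RSEM, together with credibility bounds of the posterior TPM and an isoform percent, per the file headers. A second transcript table deposited by the authors has the layout of kallisto and was summed per gene here. Per the deposited readme the tables use mm10 and GENCODE M21. Programs, versions, strand setting and the level of the credibility interval were not given in the sources used here.

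Genes were matched by name. Ratios are log2(TPM + 0.1), replicate 2 over replicate 1, which understates differences of low genes. Count ratios carry exact conditional binomial 95% intervals that cover counting error only. Shares over all genes refer to nuclear protein-coding genes. With 1 group there was no contrast to test and no p-value. The fold rule, applied there to counts per library total, and the interval were tested on simulated counts. These held counting error only, so they cannot show how either behaves with variation between samples. TMM factors came from edgeR 4.0.16 on expected counts rounded to whole numbers.

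The members and the 32 gene lists (345 symbols, 1 unmatched) were chosen with earlier results of these data known. Named list genes are the 2 highest by mean TPM, the 1 with the largest ratio among genes with a mean of 1 TPM or more, and those at 0 TPM in both libraries; other names were chosen after their values were seen. Alternatives tried were other tables, scalings, pseudocounts, thresholds and leaving out 1 library. Promoters are from RefSeq (GRCm38.p6), with 250 bases before and 30 bases from each start, and transcripts from GENCODE M21. Words of 31 bases in the annotated transcripts measured how far reads could be told apart.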

Additional observations from a re-analysis of the deposited data

How the results depend on the processing

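All choices tried left 7 members at 1 TPM or more in both libraries, except a limit of 0.5 TPM, at which 9 were. Without 1 replicate this count was 7 in either library. The count of members 1.5-fold or more apart between the libraries stayed at 1 (Cdkn1a) in the other table, with posterior TPM, a pseudocount of 1, no filter, and with TMM, protein-coding or ERCC scaling, and was 0 at 2-fold; the log2 ratio of Cdkn1a ran from 0.78 with TMM to 0.89 in the kallisto-layout table. The count apart between the tables (Mdm2) was 1 without either replicate, 0 at 2-fold, and 0 when both tables were rescaled to nuclear protein-coding genes, where Mdm2 was 1.25-fold and 1.29-fold higher. The median level of the members, 5.67 TPM, was 6.73 TPM in the kallisto-layout table and 14.0 TPM on the protein-coding scale, which by construction leaves out other RNA, and 5.32 to 6.02 TPM without 1 replicate. Neighbouring pairs apart numbered 5 in the kallisto-layout table and 7 with posterior TPM, against 6. The number of members with 1 transcript above 50% of the gene ran from 8 to 9 without 1 replicate. Of the 32 lists, 10 had a median 1.5-fold or more apart between the libraries, 8 with a pseudocount of 1 (mesothelium and neutrophil dropped out, and the T cell median went from 2.47 to 1.15) and 10 in the kallisto-layout table. No paired analysis was possible because there was only 1 group. Depth limits Cdkn2a, Cdkn2b and Gdf15, each with 22 counts or fewer per library.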
